A study of Mus musculus with 8 samples.

Results

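Macrophages that have met interleukin 4 or interleukin 13 take up a state called alternative activation, and 9 genes that mark this state in mice were followed here in the spleen. The genes are Retnla, Chil3, Arg1, Mrc1, Mgl2, Clec10a, Stab1, Folr2 and Ms4a6d. They were chosen by name: every probe whose platform gene symbol is one of the 9 was taken, which gave 12 probes among 25697 on the array. Spleen RNA came from 10-week-old B6D2F1J mice, hybrids of the C57BL/6 and DBA/2 strains, at day 14 after engraftment with cells of a DBA donor (4 arrays) or of a B10.D2 donor (4 arrays). B10.D2 is a congenic strain that carries the major histocompatibility haplotype of DBA/2. All 8 samples thus come from engrafted mice, and spleens of mice without donor cells are not analysed here. The labels give neither the number nor the kind of donor cells, and whole-spleen RNA does not separate donor from host cells. Whether the 4 replicates of a donor are 4 different mice is not stated in the labels, so each p-value reflects the scatter among these samples and part of that scatter may be technical.

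Interleukin 4 and interleukin 13 act through the interleukin 4 receptor alpha chain and the transcription factor STAT6, which binds DNA near genes of the alternative state. In mice, Retnla, Chil3 and Arg1 are the markers most often used for it, while Mrc1, Mgl2, Clec10a, Stab1 and Folr2 encode surface receptors that bind sugars, scavenged proteins or folate and are also found on resting tissue macrophages. The spleen holds several macrophage populations, among them red pulp macrophages that clear old red cells. In whole tissue, fewer cells of a type and less RNA per cell cannot be told apart.

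The 250 bases before the start of Retnla and of Chil3 are shown because they alone among the members' promoters held a motif of the STAT family. RefSeq promoters on GRCm38.p6 were at hand for 6 of the 9 genes, as 7 windows of 250 bases before to 50 bases after a start. The letters TTCNNNNGAA, a form of the motif bound by STAT6, were in 1 of the 7 windows, in Retnla with its first base at position -145 from the start. The letters TTCNNNGAA, the form bound by most other STAT proteins, were in 1 of the 7 windows, in Chil3 at position -172. Both motifs read the same on both strands and differ in spacing, so no match counted for both. Among all 32851 promoter windows of the same length, 6.95% held the first and 8.3% the second. Capitals mark the match in each sequence.
Retnla, chr16:48842359-48842608, plus strand: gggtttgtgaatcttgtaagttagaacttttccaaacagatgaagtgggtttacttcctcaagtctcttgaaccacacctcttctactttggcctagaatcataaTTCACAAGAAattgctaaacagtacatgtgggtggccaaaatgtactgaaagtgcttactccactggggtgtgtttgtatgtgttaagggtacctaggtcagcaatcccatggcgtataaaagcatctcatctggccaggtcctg
Chil3, chr3:106167565-106167814, minus strand: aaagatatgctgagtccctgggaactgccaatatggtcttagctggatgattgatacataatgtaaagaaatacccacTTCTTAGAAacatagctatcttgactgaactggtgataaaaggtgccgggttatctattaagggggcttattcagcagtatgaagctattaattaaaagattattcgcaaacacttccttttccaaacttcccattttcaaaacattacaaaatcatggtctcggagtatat

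Values below are log2 of background-corrected, normalized intensity, and differences are DBA donor minus B10.D2 donor. A probe was above background on an array where its detection p, which sets it against the array's negative control probes, was under 0.05. Between 12601 and 13320 probes were above background per array, and the 12950 that were so on 4 or more arrays went into limma, with p-values adjusted over all of them. Of these, 9 passed at an adjusted p under 0.05 (0.0695%; 0.0618% higher and 0.00772% lower with a DBA donor). All 9 listed genes of spleen lymphoid and red pulp cells entered the test. Some arrays also held transcripts of other tissues. On B10.D2 donor replicate 4, 6 of 8 listed pancreas genes were above background and on no other array, with raw intensities of 269.6 to 4784.5 there and at most 136.7 elsewhere. The adipocyte genes Adipoq and Car3 were above background on DBA donor replicates 1, 2 and 3 and on 0 of 4 B10.D2 donor arrays. Car3 was chosen after its values were seen. Other adipocyte genes did not follow: Lep was above background on 2 DBA donor and 3 B10.D2 donor arrays, and Fabp4 and Plin1 on none. Results are therefore also given without DBA donor replicate 3, the array highest in adipocyte genes, and without B10.D2 donor replicate 4.

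None of the 9 genes passed the test. In limma, 0 of the 7 tested genes had an adjusted p under 0.05, and 2, Retnla and Ms4a6d, had an unadjusted p under 0.05, where 14.5% of all tested probes did (7.09% higher and 7.4% lower with a DBA donor). Both of these had higher levels in DBA donor spleens, and the other 5 had differences below 0, at or close to 0 for Mrc1. The median difference of the 7 genes was -0.10, beside a median of -0.0045 over all tested probes. Arg1 and Folr2 did not enter the test because they were too dim. The members therefore had no common direction, as the plot of their levels by array shows.

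**Figure D1:**
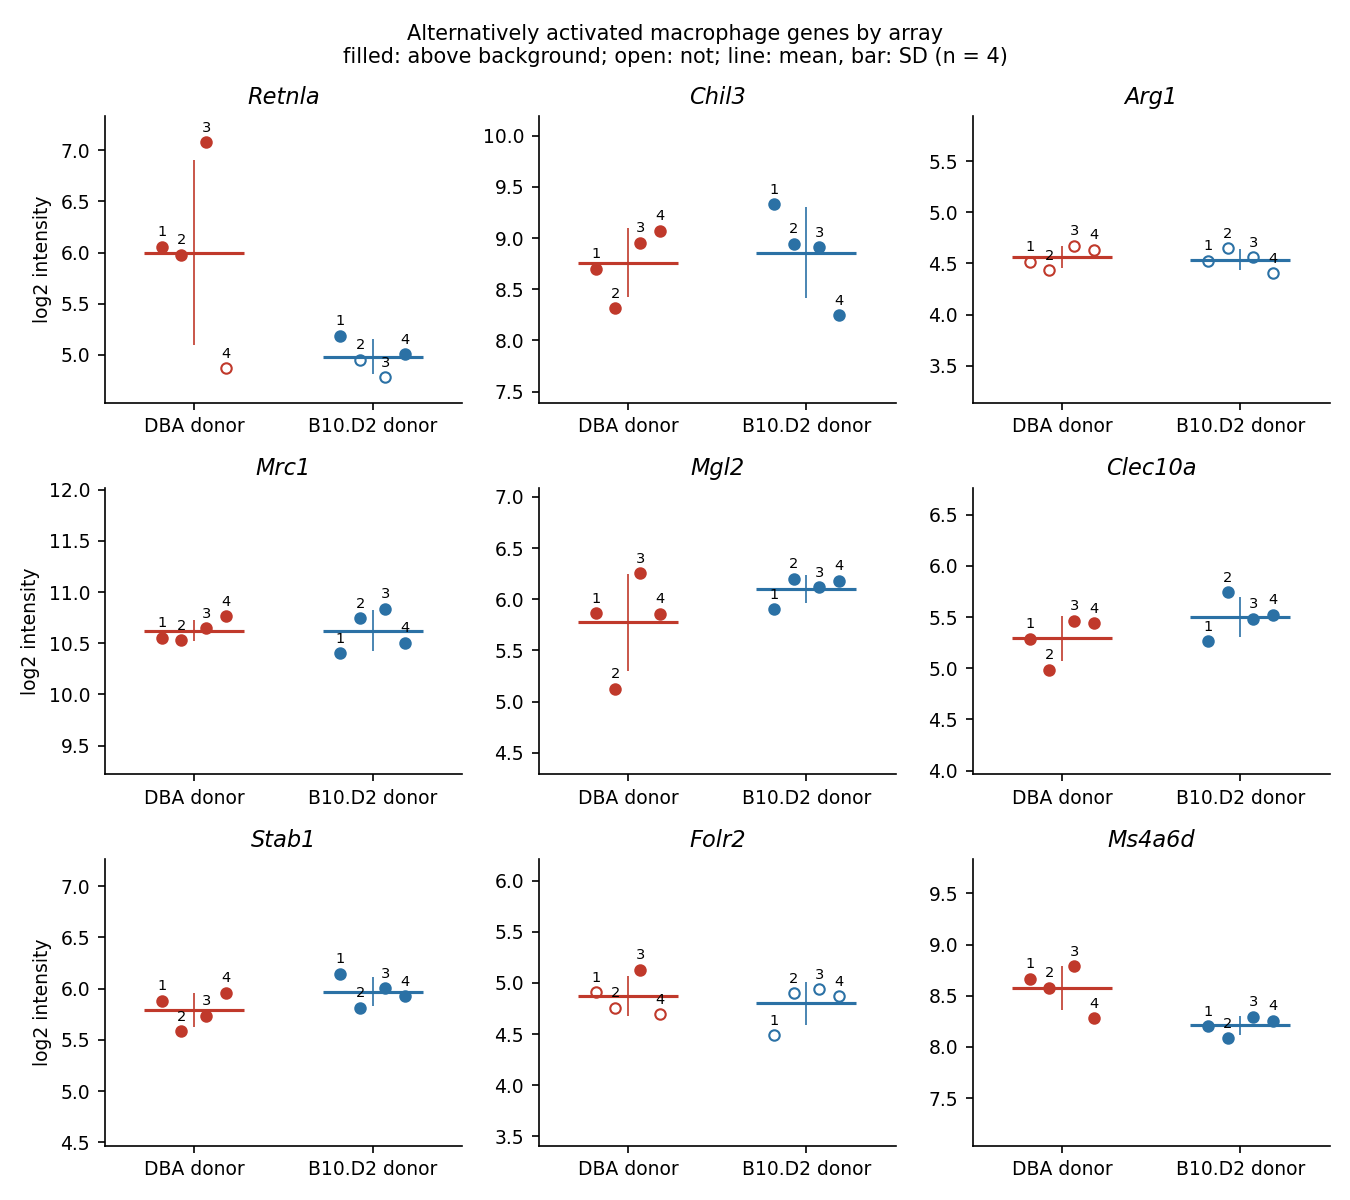
Normalized log2 intensity of the 9 genes by array, each panel with DBA donor arrays (red) left of B10.D2 donor arrays (blue). Numbers are replicates, filled points are above background, lines are means and bars are the SD (n = 4). Retnla reached 7.08 on DBA donor replicate 3 and 4.87 on DBA donor replicate 4, against 4.78 to 5.19 on the B10.D2 donor arrays. Arg1 was below background on every array.

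Retnla encodes a small secreted protein, resistin-like molecule alpha, that macrophages release on interleukin 4 or interleukin 13 signalling and that mouse adipose tissue also makes. Its log2 intensity was 6.06, 5.98, 7.08 and 4.87 on DBA donor replicates 1 to 4, against 5.19, 4.95, 4.78 and 5.01 on B10.D2 donor replicates 1 to 4. The DBA donor arrays 1, 2 and 3 stood above all B10.D2 donor arrays, and DBA donor replicate 4 lay among them. The probe was above background on 3 of the 4 arrays with a DBA donor and on 2 of the 4 with a B10.D2 donor. Means were 6.00 ± 0.90 in DBA donor spleens, against 4.98 ± 0.17 in B10.D2 donor spleens (SD, n = 4 each). The difference was 1.01 (SE 0.36, 95% confidence interval 0.22 to 1.80), with a limma unadjusted p of 0.0168 and an adjusted p of 0.244. No other member spread as widely: Retnla spanned 2.30 log2 units over the 8 arrays, against 1.13 for Mgl2 and 1.08 for Chil3.

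The size of the Retnla difference depended on single DBA donor arrays and on the background correction. Without DBA donor replicate 3 the difference was 0.66 (limma adjusted p = 0.477), without DBA donor replicate 4 it was 1.39 (limma adjusted p = 0.124), and without B10.D2 donor replicate 4 it was 1.01 (limma adjusted p = 0.218). Without DBA donor replicate 3 and B10.D2 donor replicate 4 together it was 0.66 (limma adjusted p = 0.368). It was 0.38 with no background correction (limma adjusted p = 0.287), 0.62 with an offset of 50 (limma adjusted p = 0.243) and 0.79 with the authors' processed values (limma adjusted p = 0.243). It was above 0 in all 19 alternative settings in which Retnla was tested, and passed in none of them.

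Adipoq and Car3, genes of fat cells, ran in the same order over the DBA donor arrays as Retnla. Adipoq, the adipocyte hormone adiponectin, stood at 6.96, 5.38, 8.40 and 4.52 on DBA donor replicates 1 to 4, against 4.51, 4.52, 4.42 and 4.50 on B10.D2 donor replicates 1 to 4. Car3, a carbonic anhydrase abundant in fat, stood at 6.70, 5.10, 8.49 and 4.46 on DBA donor replicates 1 to 4, against 4.74, 4.41, 4.52 and 4.53 on B10.D2 donor replicates 1 to 4. Replicate 3 was highest and replicate 4 lowest among the DBA donor arrays for Retnla, Adipoq and Car3 alike, and replicate 1 was above replicate 2. This order was not particular to fat genes. The brighter probe of the member Ms4a6d and the chemokine gene Ccl24 ran in it too, over smaller ranges. Car3 was not on the adipocyte list and was chosen after its values were seen. Of the 4 adipocyte markers on that list that have a probe, Adipoq and Lep were above background on at least 1 array and Fabp4 and Plin1 on none. Lep was above background on 2 DBA donor arrays and on 3 B10.D2 donor arrays. The summed normalized intensity of these 4 probes was 94.1 to 424 on DBA donor arrays and 95.8 to 102 on B10.D2 donor arrays. The upper end came mostly from Adipoq. A wider set of 17 adipocyte genes, in part chosen after values were seen, had 20 probes. Of these, 9 were above background on no array, 6 on more DBA donor arrays and 4 on more B10.D2 donor arrays. The 20 probes summed to 1842 to 3610 on DBA donor arrays and 2201 to 2458 on B10.D2 donor arrays. The part of fat cells in the difference of Retnla was not tested.

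Genes were also ranked by likeness to Retnla over the same 8 arrays, so the nearest ones share its order by the way they were picked. The measure was the root mean square distance between log2 profiles, each centred on its own mean over the 8 arrays. Members were left out, and each other gene was taken by its tested probe with the highest mean. The nearest was Ces1d, a carboxylesterase expressed in fat and liver, at 0.34 log2 units, followed by Cdo1, cysteine dioxygenase of liver and fat, at 0.37, and the chemokine gene Ccl24, an attractant of eosinophils, at 0.43. The median distance over all genes so taken was 0.782 and the SD of Retnla itself over the arrays was 0.757, for scale. Ces1d stood at 6.25, 5.52, 7.88 and 4.73 on DBA donor replicates 1 to 4, against 5.17, 5.16, 5.07 and 5.16 on B10.D2 donor replicates 1 to 4. Ccl24 differed from the fat genes in that its groups did not overlap, with 6.51, 6.39, 6.81 and 6.21 on DBA donor replicates 1 to 4, against 5.56, 5.73, 5.13 and 5.21 on B10.D2 donor replicates 1 to 4. The difference of Ccl24 was 1.07 (SE 0.16, limma adjusted p = 0.0522). The plot of Retnla beside these genes shows both patterns.

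**Figure D2:**
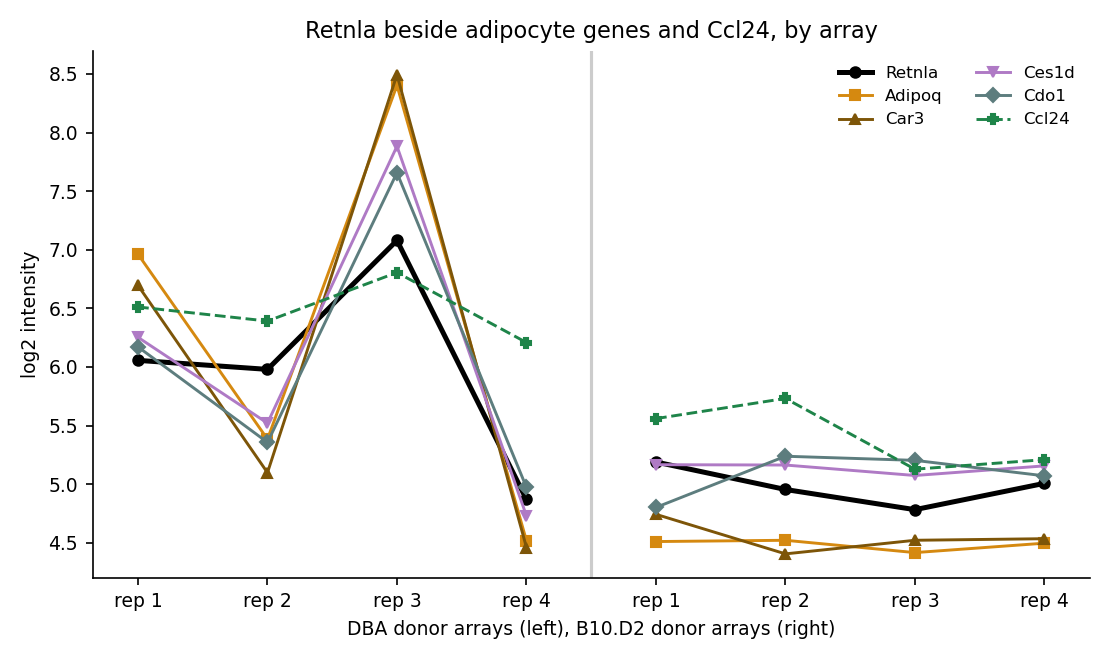
Normalized log2 intensity of Retnla (black), of Adipoq, Car3, Ces1d and Cdo1, which are expressed in fat, and of the chemokine gene Ccl24 (dashed) on each array, DBA donor arrays left of B10.D2 donor arrays. Retnla, the 4 fat-expressed genes and Ccl24 peak on DBA donor replicate 3 and are lowest among the DBA donor arrays on replicate 4. Ces1d, Cdo1 and Ccl24 were picked for their likeness to Retnla over these arrays. In Ccl24 alone the groups do not overlap. It stays at 6.21 or above on all DBA donor arrays and at 5.73 or below on all B10.D2 donor arrays.

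Chil3 encodes a secreted chitinase-like lectin, also called Ym1, which in the mouse is made by alternatively activated macrophages and also by neutrophil precursors. Its brightest probe gave 8.70, 8.32, 8.95 and 9.07 on DBA donor replicates 1 to 4, against 9.33, 8.94, 8.91 and 8.25 on B10.D2 donor replicates 1 to 4. The groups overlapped across nearly their whole range. The difference was -0.10 (SE 0.22, 95% confidence interval -0.60 to 0.40, limma adjusted p = 0.879), an interval that leaves room for a change of either sign. The 2 further probes of Chil3 had differences of 0.04 (limma adjusted p = 0.965) and -0.17 (limma adjusted p = 0.740), so the probes did not share a sign. Leaving out single arrays moved the difference of the brightest probe between -0.30, without B10.D2 donor replicate 4, and 0.06, without B10.D2 donor replicate 1.

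Markers of neutrophils were set beside Chil3 because those cells make it too. Of 13 tested genes on the neutrophil list, 6 had differences above 0 and 7 below 0, none passed, and the median was -0.03. Their mean level was 8.72 to 9.54 on DBA donor arrays and 9.04 to 9.43 on B10.D2 donor arrays. Those with the smallest p were Mmp9 (-0.50, limma adjusted p = 0.255) and Csf3r (-0.32, limma adjusted p = 0.315). The genes whose profiles lay nearest to Chil3 were an unnamed probe at 0.114, Itih3 at 0.115 and Fbxw13 at 0.122 log2 units, over the same 8 arrays. The part of neutrophils in the levels of Chil3 was not tested.

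Arg1 encodes arginase, which turns arginine into ornithine and urea, and is one of the most used markers of alternative activation in the mouse. It was not above background on any of the 8 arrays, with log2 intensities of 4.56 ± 0.11 in DBA donor spleens, against 4.53 ± 0.10 in B10.D2 donor spleens (SD, n = 4 each). No fold is given, since both groups lay below background. Nos2, the enzyme that competes for the same substrate in classically activated macrophages, was likewise not above background on any array.

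Mrc1, the mannose receptor, was above background on all 8 arrays. It gave 10.55, 10.53, 10.65 and 10.76 on DBA donor replicates 1 to 4, against 10.40, 10.75, 10.84 and 10.51 on B10.D2 donor replicates 1 to 4. The groups covered each other. Means were 10.62 ± 0.10 in DBA donor spleens, against 10.62 ± 0.20 in B10.D2 donor spleens (SD, n = 4 each), and the difference was -5.7e-05 (SE 0.11, 95% confidence interval -0.25 to 0.25, limma adjusted p = 1). The interval leaves out a difference larger than 0.25 log2 units in either direction.

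The lectin receptor genes Mgl2 and Clec10a, which lie next to each other in the mouse genome and mark both alternatively activated macrophages and some dendritic cells, had differences below 0. Mgl2 gave 5.86, 5.12, 6.25 and 5.86 on DBA donor replicates 1 to 4, against 5.90, 6.20, 6.12 and 6.18 on B10.D2 donor replicates 1 to 4. Clec10a gave 5.29, 4.99, 5.46 and 5.44 on DBA donor replicates 1 to 4, against 5.27, 5.74, 5.48 and 5.52 on B10.D2 donor replicates 1 to 4. DBA donor replicate 2 was the lowest of all arrays for both genes, and the groups overlapped for both. The difference was -0.33 for Mgl2 (SE 0.20, 95% confidence interval -0.77 to 0.12, limma adjusted p = 0.487). It was -0.21 for Clec10a (SE 0.13, 95% confidence interval -0.51 to 0.09, limma adjusted p = 0.506). Without DBA donor replicate 2 both were -0.11 (limma adjusted p = 0.766 for Mgl2 and 0.762 for Clec10a), and without DBA donor replicate 3 Mgl2 was -0.49 (limma adjusted p = 0.457). Of the genes nearest to Mgl2, the endothelial gene Thsd1 lay at 0.15 log2 units, BC147527 at 0.165 and Stard8 at 0.17.

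Dendritic cell markers were also below 0 on the whole. Of the 7 tested genes on that list, which include Mgl2 and Clec10a, 1 was above 0 and 6 below, with a median of -0.33, and none passed. For the 5 that are not members the median was -0.35. Their mean level was 6.600 to 6.801 on DBA donor arrays and 6.799 to 7.097 on B10.D2 donor arrays, ranges that overlap slightly. Those with the smallest p were Siglech, a marker of plasmacytoid dendritic cells (-0.62, limma adjusted p = 0.191), and Ccr7 (-0.36, limma adjusted p = 0.274). The defining markers Itgax, Flt3, Xcr1 and Clec9a did not enter the test. The part of dendritic cells in the differences of Mgl2 and Clec10a was not tested.

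Stab1 encodes a scavenger receptor of macrophages and sinusoidal endothelium. It gave 5.88, 5.58, 5.74 and 5.96 on DBA donor replicates 1 to 4, against 6.15, 5.81, 6.00 and 5.92 on B10.D2 donor replicates 1 to 4. The groups overlapped, with DBA donor replicate 2 lowest. The difference was -0.18 (SE 0.11, 95% confidence interval -0.43 to 0.06, limma adjusted p = 0.483), and without DBA donor replicate 2 it was -0.11 (limma adjusted p = 0.713). Folr2, a folate receptor of tissue macrophages, was above background on 1 of 4 DBA donor arrays, replicate 3, and on 0 of 4 B10.D2 donor arrays. Its log2 intensities of 4.87 ± 0.19 in DBA donor spleens, against 4.80 ± 0.21 in B10.D2 donor spleens (SD, n = 4 each) lay near background, so no fold is given.

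Ms4a6d encodes a membrane-spanning protein of the MS4A family that macrophages express. Its brighter probe gave 8.67, 8.58, 8.79 and 8.28 on DBA donor replicates 1 to 4, against 8.20, 8.08, 8.30 and 8.26 on B10.D2 donor replicates 1 to 4. DBA donor replicates 1, 2 and 3 stood above all B10.D2 donor arrays, and replicate 4 lay within their range. The difference was 0.37 (SE 0.12, 95% confidence interval 0.11 to 0.62), or 1.29-fold, with a limma unadjusted p of 0.00947 and an adjusted p of 0.220.

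The second Ms4a6d probe gave 6.55, 6.35, 6.52 and 6.03 on DBA donor replicates 1 to 4, against 5.81, 5.99, 6.02 and 5.88 on B10.D2 donor replicates 1 to 4. Here the groups did not overlap, DBA donor replicate 4 exceeding the highest B10.D2 donor array by a small margin; the same held, with DBA donor arrays higher, for 4.15% of all tested probes, beside 4.22% in the other direction and 8.37% in all. The difference was 0.44 (SE 0.12), or 1.36-fold, with a limma unadjusted p of 0.0046 and an adjusted p of 0.200. Both probes had higher means in DBA donor spleens. Without DBA donor replicate 3 the brighter probe differed by 0.30 (limma adjusted p = 0.475), and without B10.D2 donor replicate 4 by 0.38 (limma adjusted p = 0.176). It was above 0 in all 20 alternative settings and passed in none. Without DBA donor replicate 3 and B10.D2 donor replicate 4 together, Ms4a6d differed by 0.31, Chil3 by -0.36, Mgl2 by -0.46, Clec10a by -0.26, Stab1 by -0.18 and Mrc1 by -0.05, with limma adjusted p-values of 0.361 to 0.902. The plot of differences sets the tested probes of the members beside each other.

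**Figure D3:**
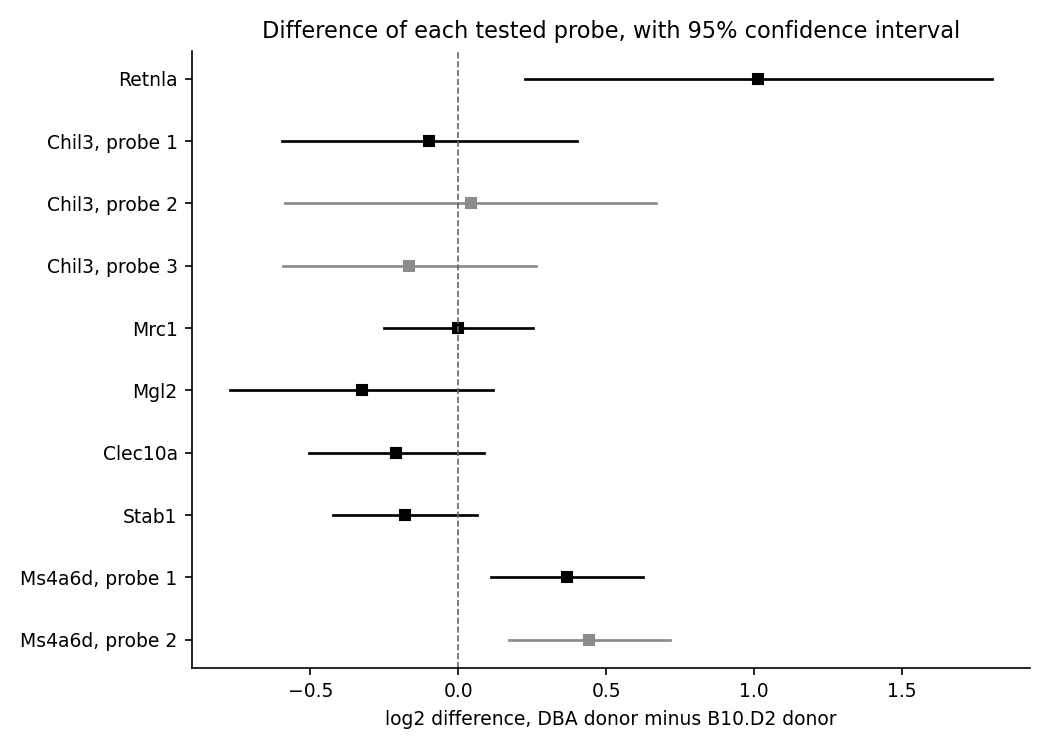
Log2 difference, DBA donor minus B10.D2 donor, of the 10 tested probes of the members, with 95% confidence intervals. Black squares are the probe that stands for a gene and grey squares its further probes. The intervals of Retnla and of both Ms4a6d probes lie above 0 before adjustment for the number of probes tested, and those of Chil3, Mrc1, Mgl2, Clec10a and Stab1 include 0.

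A list of macrophage and monocyte genes was set beside the members. It also holds Csf1 and Il34, growth factors that act on these cells, so its counts are not of cell markers alone. Of 12 tested genes on that list, 3 had differences above 0 and 9 below 0, none passed, and the median was -0.06. Their mean level was 8.53 to 8.75 on DBA donor arrays and 8.59 to 8.81 on B10.D2 donor arrays, ranges that overlap. Axl, a receptor by which macrophages take up dying cells, had the smallest p on the list (-0.24, limma adjusted p = 0.326), followed by the macrophage growth factor Il34 (-0.21, limma adjusted p = 0.514).

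Relatives of the members by sequence were followed as well. Of 15 tested paralogs, 9 had differences above 0 and 6 below 0, with a median of 0.03. None passed and none had an unadjusted p under 0.05. Retnlg, the neutrophil relative of Retnla, differed by 0.08 (limma adjusted p = 0.863), and Chil1 by 0.14 (limma adjusted p = 0.791). The receptor relatives Mrc2 and Stab2 differed by -0.12 and -0.09. Of the MS4A family, Ms4a6c differed by 0.14, Ms4a6b by -0.20, Ms4a7 by 0.03, Ms4a8a by 0.11, Ms4a3 by 0.03 and the B cell gene Ms4a1, which encodes CD20, by -0.19. The lectin relatives Ly75, Clec4a3, Clec4a1 and Asgr2 differed by 0.27, 0.13, -0.04 and -0.09, and the folate receptor relative Izumo1r by 0.01. The sign of Mrc2, Asgr2 and Ms4a6b turned when arrays were scaled to their 75th percentile, that of Izumo1r with cyclic loess and that of Ms4a3 and Ms4a7 with array weights.

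The signals that drive the state were measured at the level of RNA. Of 17 tested genes of interleukin 4, 13 and 10 signalling, 9 had differences above 0 and 8 below 0, with a median of 0.00. None passed, while 4 were higher and 3 lower in DBA donor spleens at an unadjusted p under 0.05. Il4 was 7.33 ± 0.15 in DBA donor spleens, against 6.87 ± 0.35 in B10.D2 donor spleens (SD, n = 4 each; difference 0.46, SE 0.16, limma adjusted p = 0.245). With the lowest array, B10.D2 donor replicate 4, left out, Il4 differed by 0.28 (limma adjusted p = 0.21). Il13 differed by 0.00 (limma adjusted p = 0.994). Il10, a cytokine that dampens macrophages, differed by 0.40 (limma adjusted p = 0.209). It was dim as well, above background on 4 DBA donor arrays and 3 B10.D2 donor arrays.

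The alarmin gene Il33, which stimulates cells that make interleukin 13, gave 8.58, 8.56, 8.58 and 8.40 on DBA donor replicates 1 to 4, against 8.17, 8.02, 7.92 and 6.90 on B10.D2 donor replicates 1 to 4. Its groups did not overlap, and B10.D2 donor replicate 4, the array with pancreas RNA, was lowest. The difference was 0.78 (limma adjusted p = 0.207), and without that array it was 0.49 (limma adjusted p = 0.0862). Il10ra, the ligand-binding chain of the interleukin 10 receptor, ran the other way without overlap (-0.55, limma adjusted p = 0.169). Il33 and Il10ra were named for the smallest p on their list, and groups were apart for 8.37% of all tested probes. Stat6 differed by -0.14 (limma adjusted p = 0.621), and Il4ra had no listed probe.

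A longer list of other genes of alternative activation was counted the same way. Of 28 tested, 15 had differences above 0 and 13 below 0, with a median of 0.00, and 6 were higher and none lower in DBA donor spleens at an unadjusted p under 0.05. The one that passed was Ccl8, a chemokine that attracts monocytes and other leukocytes. It gave 8.24, 7.87, 8.26 and 8.29 on DBA donor replicates 1 to 4, against 6.82, 6.09, 6.13 and 5.39 on B10.D2 donor replicates 1 to 4. All DBA donor arrays stood above all B10.D2 donor arrays. Ccl8 rose by 2.06 (SE 0.25, limma adjusted p = 0.0194). That call was lost without DBA donor replicate 1, 3 or 4, without B10.D2 donor replicate 2 or 3, and with no filter on dim probes, at differences of 2.02 or more and limma adjusted p-values of 0.0806 to 0.11. With no background correction the difference was 1.20. Ccl24, also on this list, differed by 1.07 with the groups apart (limma adjusted p = 0.0522). Clec7a, the receptor for fungal beta-glucan, differed by 0.47 (limma adjusted p = 0.137), and the signalling inhibitor Socs2 by 0.65 (limma adjusted p = 0.203).

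Eosinophils, mast cells and basophils are sources of interleukin 4 and responders to the same signals, and their markers were set beside the members. Of 8 tested mast cell and basophil genes, all 8 had differences above 0, with a median of 0.45, and their mean level was 6.75 to 7.02 on DBA donor arrays and 6.26 to 6.50 on B10.D2 donor arrays. Mcpt4, a mast cell chymase, passed (1.28, SE 0.17, limma adjusted p = 0.0341), and 5 of the 8 had an unadjusted p under 0.05 in that direction. The call of Mcpt4 was lost without any one of the DBA donor replicates, without B10.D2 donor replicate 2 or 3, and with no filter on dim probes, at differences of 1.16 to 1.37 and limma adjusted p-values of 0.0828 to 0.14. It was also lost without DBA donor replicate 3 and B10.D2 donor replicate 4 together (1.33, limma adjusted p = 0.123), and with no background correction the difference was 0.53. Of 6 tested eosinophil genes, 5 were above 0 and 1 below, with a median of 0.37, and none passed. That list also holds the chemokine Ccl11 and the cytokine Il5, which act on eosinophils, so its counts are not of cell markers alone. Ccl11 differed by 0.45 (limma adjusted p = 0.209) and Epx by 0.56 (limma adjusted p = 0.337). The mean level of the 6 genes was 7.28 to 8.11 on DBA donor arrays and 7.17 to 7.65 on B10.D2 donor arrays. The part of eosinophils, mast cells and basophils in the levels of the members was not tested. The plot of the lists places the members among them.

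**Figure D4:**
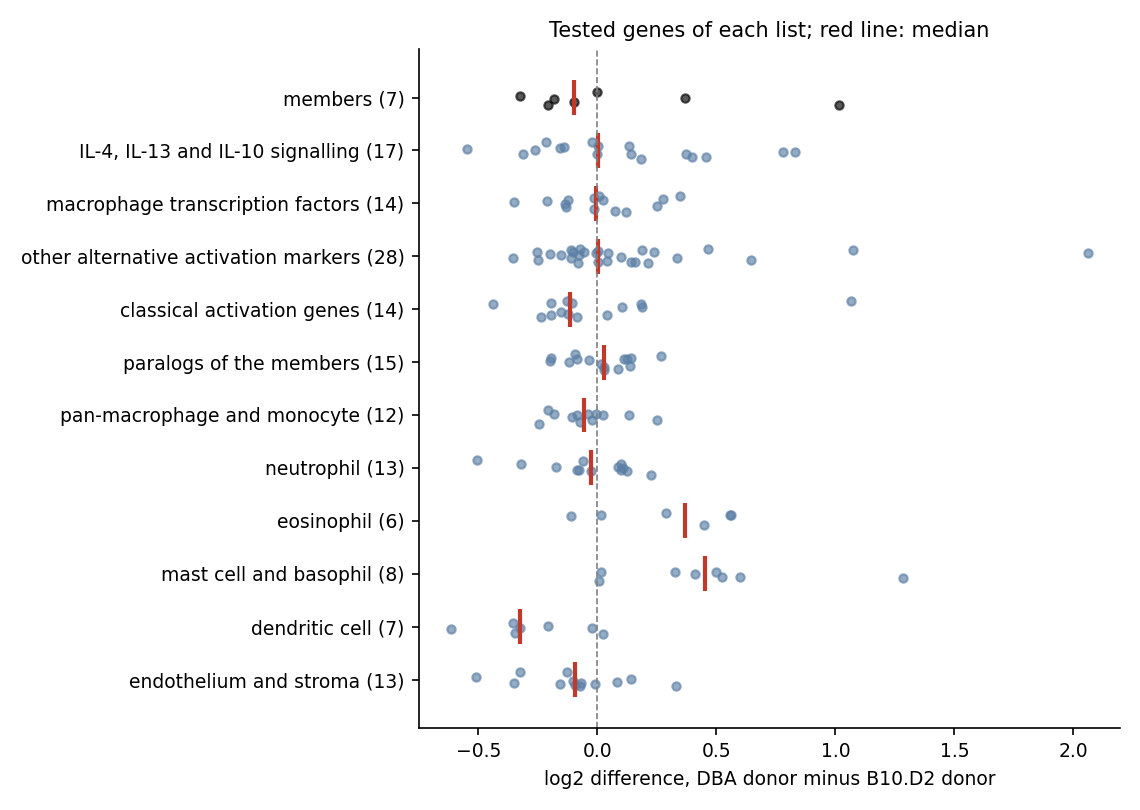
Log2 difference, DBA donor minus B10.D2 donor, of each tested gene (points) of the members and of 11 further lists, with the number of genes in brackets and the median as a red line. The 7 tested members run from -0.33 to 1.01 around a median of -0.10, and the mast cell and basophil list has the highest median, 0.45.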

How the data were processed

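Per the labels' protocols, 8 spleen RNA samples were biotin-labelled and hybridised to Illumina MouseRef-8 v2.0 BeadChips. Per the file headers, the deposited non-normalized table holds each probe's mean bead intensity, which is linear. Per the file headers, it has a detection p-value column per array, which in tables of this kind compares each probe with negative control probes. The authors also deposited intensity values that they had processed further, by steps not stated. These are linear, reach down to -16.5 and served as an alternative after adding 32.5 to each value. GenomeStudio is the tool in the submitters' processing notes. Its version and the genome build of the probes are not given in the labels or headers.

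Samples were grouped by the donor in their titles. Intensities were background-corrected by normexp from the detection p-values with an offset of 16, quantile-normalized and put on a log2 scale (neqc, limma 3.58.1, R 4.3.3). The offset shrinks the differences of dim probes. Probes above background (detection p under 0.05) on 4 or more arrays were tested with lmFit and eBayes (two-sided) and adjusted by Benjamini-Hochberg over all 12950. A gene is represented by its tested probe with the highest mean. Genes were named from the platform annotation: 23978 probes had 1 symbol, 0 had several and 1719 are unnamed here, and 23962 named probes matched the GRCm38.p6 gene table by Entrez number. The fit was tested on simulated data. The simulation had independent noise and no RNA of other tissues, so it does not show what share of changes would be found on these arrays. Precision is limited by the number of arrays.

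The members and gene lists were chosen with earlier results of these data known. The text names every member with all its probes, Il4, Il13, Il10, Il4ra, Stat6, Nos2 and all tested paralogs. From each list it names the genes that passed, or the 2 with the smallest p, and further list genes without calls are given as counts. For members that span at least 1 log2 unit it names the 3 genes with the nearest profile. Clec7a, Socs2, Car3 and the untested fat and pancreas genes fall outside this rule and were picked once their values were known. Deviations of same-numbered arrays of the donors had correlations of 0.34, -0.35, 0.05 and 0.04 over probes. Those of differently numbered arrays ran from -0.53 to 0.56. These few values cannot exclude a pairing. The labels state none, so the samples were treated as unpaired. Alternatives changed the background correction, the normalization, the table used, the filter on dim probes, the choice among a gene's probes, the variance model, the weights of arrays and the replicate block, or left out each array. The loss of DBA donor replicate 3 and B10.D2 donor replicate 4 together was chosen after seeing the data. Python 3.11.15 with matplotlib 3.10.9 drew the figures.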

Additional observations from a re-analysis of the deposited data

Results flagged for a closer look

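Among 120 groups of 4 arrays of the members and the other named genes, 9 held an array whose gap to the nearest of the others took more of the group's whole range than Dixon's 95% critical value for 4 values, where chance alone gives about 6. No member was among them. DBA donor replicate 2 stood low for Stard8, a gene close to Mgl2 in profile (gap of 0.947 of the range), for Axl (0.919) and for Ccl8 (0.884). DBA donor replicate 4 stood low for Il33 (0.888).

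Among the B10.D2 donor arrays, replicate 4 stood high for the pancreas gene Cela1 (0.863; 10.87 on that array and 8.67 on the next). Replicate 2 stood high for Asgr2 (0.863) and low for Mrc2 (0.832). Replicate 3 stood low for Ces1d (0.891; 5.07 against 5.16 on the next array) and replicate 1 low for Cxcl12 (0.849).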

How the results depend on the processing

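No member passed in any of the 20 alternatives, and the members' median stayed between -0.20 and 0.03 when single arrays were left out. Retnla (0.38 with no background correction to 1.39 without DBA donor replicate 4) and Ms4a6d (0.29 to 0.47) were above 0, and Mgl2, Clec10a and Stab1 below 0, in every alternative that tested them. The stricter filter left 4 members in the test, Chil3, Mrc1, Stab1 and Ms4a6d, and removed Retnla, Mgl2 and Clec10a. With the replicate block 7 probes passed and 0 members, with the same differences of the members (Retnla 1.01, limma adjusted p = 0.293). The labels do not state that the numbers pair the samples. In limma, the count of 9 passing probes became 18 with 75th percentile scaling, 38 with array weights, 0 with no filter on dim probes (2759 at an unadjusted p under 0.05) and 0 with the stricter filter (1587), which test more and fewer probes. It was 4 without DBA donor replicate 3 and B10.D2 donor replicate 4, and 0 to 11 when single arrays were left out. The median over all probes moved by 0.05 with 75th percentile scaling. For these results the cause was not tested. Ccl24 passed in 4 alternatives (75th percentile scaling, the authors' values, trend and robust variance, array weights).

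Signs turned for the following genes, none of which passed. With 75th percentile scaling the difference was 0.024 for Mrc1, 0.056 for Asgr2, 0.072 for Mrc2 and 0.0094 for Ms4a6b. With cyclic loess it was -0.00106 for Izumo1r, and with the mean of a gene's probes 0.077 for Nr1h3. With array weights it was 0.021 for Cela1, -0.073 for Il13, -0.012 for Itih3, -0.046 for Izumo1r, -0.00038 for Ms4a3 and -0.025 for Ms4a7. Leaving out arrays, singly or as the pair above, gave ranges of -0.36 to 0.059 for Chil3, -0.075 to 0.073 for Mrc1, -0.13 to 0.012 for Asgr2, -0.55 to 0.30 for Cela1, -0.035 to 0.28 for Chil1 and -0.078 to 0.0034 for Clec4a1. They were -0.0040 to 0.20 for Clec4a3, -0.10 to 0.10 for Il13, -0.29 to 0.016 for the unnamed probe near Chil3 (ILMN_2832641), -0.21 to 0.17 for Itih3, -0.069 to 0.11 for Lep and -0.24 to 0.16 for Ms4a3. They were -0.028 to 0.10 for Ms4a7, -0.039 to 0.25 for Ms4a8a, -0.086 to 0.23 for Retnlg and -0.12 to 0.070 for Izumo1r. Dim probes limit the reading of Arg1 and Folr2, which lay at or near background, and also of Il13 and Il10. They also limit that of Retnla, Mgl2 and Clec10a, which the stricter filter left out.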

Other observations

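Classical activation, the state that macrophages enter under interferon gamma and bacterial products, showed no common direction either. Of 14 tested genes, 5 had differences above 0 and 9 below 0, none passed in limma, and the median was -0.11. The brightest of 3 tested probes of Cd86, a costimulatory ligand for T cells, had lower values in all 4 DBA donor spleens than in any B10.D2 donor spleen (10.31 ± 0.19 in DBA donor spleens, against 10.75 ± 0.10 in B10.D2 donor spleens, SD, n = 4 each; difference -0.44, limma adjusted p = 0.169). The next brightest probe of Cd86 gave -0.37, also with the groups apart (limma adjusted p = 0.180). The dimmest went the other way, at 0.20 with overlapping groups (limma adjusted p = 0.571). Cd86 was named for a small p on its list, and groups were apart for 8.37% of all tested probes. Ido1, a tryptophan-degrading enzyme, was at 7.37, 6.63, 7.52 and 6.75 on DBA donor replicates 1 to 4, against 6.72, 6.51, 6.18 and 4.59 on B10.D2 donor replicates 1 to 4. The groups overlapped and the low value was that of the array with pancreas RNA (difference 1.07, limma adjusted p = 0.280; without that array 0.59, limma adjusted p = 0.209).

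Of 14 tested macrophage transcription factors, 7 had differences above 0 and 7 below 0, with a median of -0.0048 and none passed. Irf5, a factor of the classical state, differed by -0.35 (limma adjusted p = 0.226), with the groups apart, and Nr1h3, the liver X receptor alpha, by -0.21 on its brighter probe (limma adjusted p = 0.338). The dimmer Nr1h3 probe went the other way, by 0.36 with the groups apart (limma adjusted p = 0.221). Of 13 tested genes of endothelium and stroma, 3 were above 0 and 10 below 0, with a median of -0.09 and none passed. Cdh5, the cadherin of endothelial junctions, differed by -0.51 (limma adjusted p = 0.136) and the stromal chemokine Cxcl12 by -0.35 (limma adjusted p = 0.141), both with the groups apart. Groups were apart for 8.37% of all tested probes. Irf5, Cdh5 and Cxcl12 were named for the smallest p on their lists. All 9 tested genes of spleen lymphoid and red pulp cells were below 0, with a median of -0.13 and none passed. The smallest p there was that of the B cell receptor gene Cd79a (-0.37, limma adjusted p = 0.220), followed by its partner Cd79b (-0.19, limma adjusted p = 0.472). Of the list of pancreas and fat genes, 2 were tested, with a median of -0.12.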
